A study of Caenorhabditis elegans with 12 samples.

Results

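In Caenorhabditis elegans, 10 genes that encode G protein alpha subunits of sensory neurons (odr-3, gpa-1, gpa-2, gpa-3, gpa-4, gpa-5, gpa-6, gpa-10, gpa-11 and gpa-13) were followed in embryonic cells sorted by a GFP reporter of the mir-124 promoter, mir-124 being a microRNA gene. The genes were chosen by name, from among those with known sensory roles or sensory reporters. Each was read from the probe set that the platform annotation assigns to it. Each of the 10 genes had exactly 1 such probe set, out of 22548 tested, and 17118 genes had a probe set of their own. The array measured 22 genes of G alpha subunits in all, and the other 12 are described after these 10. Affymetrix arrays, 3 in each of 4 groups, measured GFP+ and GFP- cells of wild-type animals and of mir-124 mutants. The mutant allele is not named in the labels. Per the labels' protocols, whose text is shared by all samples, the reporter was an integrated transgene, built with a lin-15 rescue marker in lin-15 (n765) worms and then outcrossed into N2. Embryos were dissociated, the cells were kept in culture for 24 hours, 500000 cells were sorted for each sample, and their RNA was amplified. GFP+ cells are therefore defined by the activity of that promoter in a transgene, and the cells had left the animal before they were measured. The fraction contrast asks which transcripts mark cells with an active mir-124 promoter, and the strain contrast asks what differs between mutant and wild-type cells. Other differences between the strains, if there are any, cannot be told apart from the absence of the microRNA with these arrays.

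A heterotrimeric G protein links a membrane-spanning receptor to its effectors: an activated receptor loads GTP onto the alpha subunit, which parts from the beta and gamma subunits, and RGS proteins end the signal by speeding GTP hydrolysis. In the ciliated sensory neurons of C. elegans, chemoreceptors act through several alpha subunits to open cyclic nucleotide-gated channels (tax-2 and tax-4) or TRPV channels (osm-9 and ocr-2). Beside the Gs, Gq, Go and G12 classes shared with other animals, the worm has a set of nematode alpha subunits, most of which have reporters in sensory neurons. In these data, every mutant GFP+ array was above every mutant GFP- array for 8 of the 10 genes, an order that 20.1% of all probe sets had, and gpa-4 and gpa-5 did not separate the fractions.

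Both wild-type replicate 3 arrays stood apart from the others, and the wild-type differences of the 10 genes are given with and without them. The profile of the array labelled wild-type GFP- replicate 3 went against its label: averaged over 16 cilium genes, its log2 signal was 8.83, against 5.33 to 5.53 in the other 5 GFP- arrays and 8.15 to 8.72 in all GFP+ arrays. Its mean over 14 body wall muscle genes was 7.06, against 9.58 to 10.44 in the other GFP- arrays and 6.92 to 7.43 in GFP+ arrays. It correlated with wild-type GFP+ replicate 3 at r = 0.977 across probe sets and with its own group at a mean r of 0.898. In the same pair of arrays the poly-A control transcripts, which are added as a check on amplification and labelling, read 4.02 and 3.97 log2 units higher at the 3′ end than in the middle, against 1.78 to 2.34 in the other 10 arrays. The fit over all 12 arrays is called the 12-array fit, and the fit without this pair the 10-array fit. All values below are deposited log2 signals, differences are log2 fold changes with standard errors (SE) from limma, and a gene is called at a Benjamini-Hochberg adjusted p under 0.05 over all 22548 probe sets. Signals of different probe sets were not compared with each other.

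odr-3 encodes the main stimulatory alpha subunit of olfaction and of avoidance by the AWA, AWB, AWC, ASH and ADF neurons. In mutant cells its log2 signal was 7.78, 7.66 and 7.53 in GFP+ replicates 1, 2 and 3, and 4.70, 4.58 and 5.02 in GFP-. The wild-type values were 7.36, 7.01 and 7.07 in GFP+, and 4.83, 4.83 and 6.90 in GFP-. The fractions did not overlap in either strain, and odr-3 was the only one of the 10 genes of which this held in wild-type with all arrays. The wild-type margin was narrow, with 7.01 in the lowest GFP+ array against 6.90 in the array labelled GFP- replicate 3. Every GFP+ array was above every GFP- array for 20.1% of all probe sets in mutant and for 5.49% in wild-type. The mutant difference was 2.89 ± 0.454 (SE; 7.41-fold, limma adjusted p = 0.0133) in the 12-array fit. In wild-type it was 1.63 ± 0.454 (adjusted p = 0.255) with 12 arrays and 2.35 ± 0.184 (adjusted p = 5.47e-05) with 10.

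gpa-13 encodes an alpha subunit that acts with odr-3 and gpa-3 in olfaction and has a reporter in ADF, ASH, AWC and the phasmid neurons. Its mutant log2 signal was 6.56, 7.00 and 6.96 in GFP+ replicates and 3.01, 3.26 and 3.18 in GFP-. The wild-type signal was 6.56, 6.52 and 8.20 in GFP+, and 3.29, 3.38 and 8.40 in GFP-. The 3 mutant GFP- and the first 2 wild-type GFP- replicates lay more than 3 log2 units below every GFP+ array, and both wild-type replicate 3 arrays were above all others. The mutant difference of 3.69, a 12.9-fold higher signal in GFP+ cells, was the largest of the 10 in point estimate. The GFP- signals of gpa-13, like those of gpa-2, gpa-3 and gpa-10, lay below the lower quartile of the array on 5 GFP- arrays; for such dim signals the fold, and with it the order of the genes by fold, is less certain. Its SE was 1.11 in the 12-array fit (adjusted p = 0.0564) and 0.140 in the 10-array fit (adjusted p = 5.62e-07). In wild-type it was 3.21 ± 0.172 (adjusted p = 9.59e-06) in the 10-array fit and 2.07 ± 1.11 (adjusted p = 0.489) with 12.

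gpa-3 is active in most amphid and phasmid sensory neurons and takes part in olfaction, in the avoidance of noxious cues and in the response to dauer pheromone, the signal that sends larvae into diapause. Its mutant log2 signal was 5.85, 6.32 and 5.89 in GFP+ and 3.56, 3.79 and 3.42 in GFP-. The wild-type values were 5.75, 5.46 and 4.45 in GFP+, and 3.63, 3.44 and 4.60 in GFP-. The 3 mutant pairs gave differences between 2.29 and 2.53, a narrow range, while wild-type pairs 1 and 2 gave 2.12 and 2.02 and pair 3 gave -0.14. The mutant difference was 2.43 ± 0.363 (5.40-fold, limma adjusted p = 0.0126) in the 12-array fit. The wild-type difference was 2.07 ± 0.204 (adjusted p = 0.000176) in the 10-array fit and 1.33 ± 0.363 (adjusted p = 0.253) with 12.

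gpa-2 modulates olfaction in AWC and, together with gpa-3, dauer pheromone signalling. Its mutant log2 signal was 5.78, 6.23 and 6.18 in GFP+ and 2.96, 3.64 and 3.15 in GFP-. The wild-type signal was 5.87, 5.79 and 4.08 in GFP+, and 3.51, 3.63 and 5.56 in GFP-. All 3 mutant pairs and wild-type pairs 1 and 2 had the higher value in GFP+, and wild-type pair 3 ran the other way, by 1.48. The mutant difference was 2.81 ± 0.580 (7.03-fold, limma adjusted p = 0.0183) in the 12-array fit, and the wild-type difference was 2.26 ± 0.232 (adjusted p = 0.000226) in the 10-array fit and 1.02 ± 0.580 (adjusted p = 0.514) with 12. gpa-5, which counteracts odorant signalling in AWA, is the other inhibitory subunit of olfaction among the 10. Its log2 signal lay between 3.19 and 3.58 on all 12 arrays, below each array's lower quartile (4.06 to 4.22), and its fractions overlapped in both strains. The mutant difference was 0.0285, with a 95% confidence interval of -0.20 to 0.25 in the 10-array fit, and the wild-type difference was -0.0083 (-0.28 to 0.27) there and -0.016 with 12 arrays.

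gpa-1 and gpa-11 have reporters in neurons that detect noxious cues, gpa-1 in several amphid neurons and the phasmids, gpa-11 in ADL and ASH, where it takes part in the food-dependent sensitivity to repellents. The mutant gpa-1 signal was 7.98, 8.92 and 8.92 in GFP+ and 5.40, 5.62 and 5.34 in GFP-. Wild-type cells gave 8.34, 8.50 and 9.47 in GFP+, and 5.19, 5.47 and 9.72 in GFP-. Mutant GFP+ replicate 1 was the lowest of the GFP+ arrays and still lay 2.36 log2 units above the highest GFP- array other than the one labelled wild-type GFP- replicate 3. For gpa-11 the mutant signal was 6.45, 7.26 and 7.45 in GFP+ and 4.25, 4.26 and 3.88 in GFP-. Its wild-type signal was 6.75, 6.76 and 8.15 in GFP+, and 3.78, 4.26 and 8.43 in GFP-. The order of the arrays was nearly the same for both genes, with mutant GFP+ replicate 1 lowest among GFP+ arrays and the wild-type replicate 3 pair highest of all. The mutant difference of gpa-1 was 3.15 (8.90-fold), with an SE of 0.964 in the 12-array fit (adjusted p = 0.0586) and 0.241 in the 10-array fit (adjusted p = 2.02e-05). That of gpa-11 was 2.93 (7.60-fold), with an SE of 0.990 (adjusted p = 0.0819) and 0.255 (adjusted p = 4.50e-05). In wild-type the 10-array fit gave 3.09 ± 0.295 for gpa-1 (adjusted p = 0.000151) and 2.74 ± 0.313 for gpa-11 (adjusted p = 0.000414), and the 12-array fit gave 1.97 ± 0.964 and 1.73 ± 0.990, calling neither (adjusted p = 0.447 and 0.515).

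gpa-6, gpa-10 and gpa-4 have reporters in a few amphid neurons, among them AWA for gpa-6, ADF, ASI and ASJ for gpa-10, and ASI for gpa-4. The gpa-6 signal in mutant cells was 7.30, 7.70 and 8.03 in GFP+ and 5.41, 5.46 and 5.73 in GFP-. Wild-type cells gave 7.32, 7.87 and 8.85 in GFP+, and 5.48, 5.88 and 8.90 in GFP-. Outside the wild-type replicate 3 pair the fractions were 1.41 log2 units apart at their nearest, and the mutant difference was 2.14 (4.42-fold), with an SE of 0.748 (adjusted p = 0.0899) with 12 arrays and 0.222 (adjusted p = 0.000127) with 10. The gpa-10 signal in mutant cells was 4.38, 4.62 and 4.73 in GFP+ and 3.48, 3.28 and 3.38 in GFP-. Wild-type cells gave 4.70, 4.63 and 6.50 in GFP+, and 3.19, 3.56 and 6.34 in GFP-. Its mutant difference, 1.20 (2.29-fold), was the smallest in point estimate among the 8 genes that separated the mutant fractions, again with dim GFP- signals, with an SE of 0.736 (adjusted p = 0.343) with 12 arrays and 0.139 (adjusted p = 0.000251) with 10. The wild-type differences in the 10-array fit were 1.91 ± 0.272 for gpa-6 (adjusted p = 0.00148) and 1.29 ± 0.171 for gpa-10 (adjusted p = 0.000987), and with 12 arrays they were 1.26 ± 0.748 and 0.91 ± 0.736, neither called (adjusted p = 0.536 and 0.668). For gpa-4 all 12 values lay between 4.33 and 4.81, below the median of every array, and the fractions overlapped in both strains. Its difference was 0.037 in mutant (95% confidence interval -0.23 to 0.30) and 0.066 in wild-type (-0.26 to 0.39) in the 10-array fit, and 0.17 in wild-type with 12 arrays. A signal difference of the size seen for the other 8 genes lay outside both 10-array intervals. Whether this dim probe set follows the gpa-4 transcript was not tested.

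**Figure D1:**
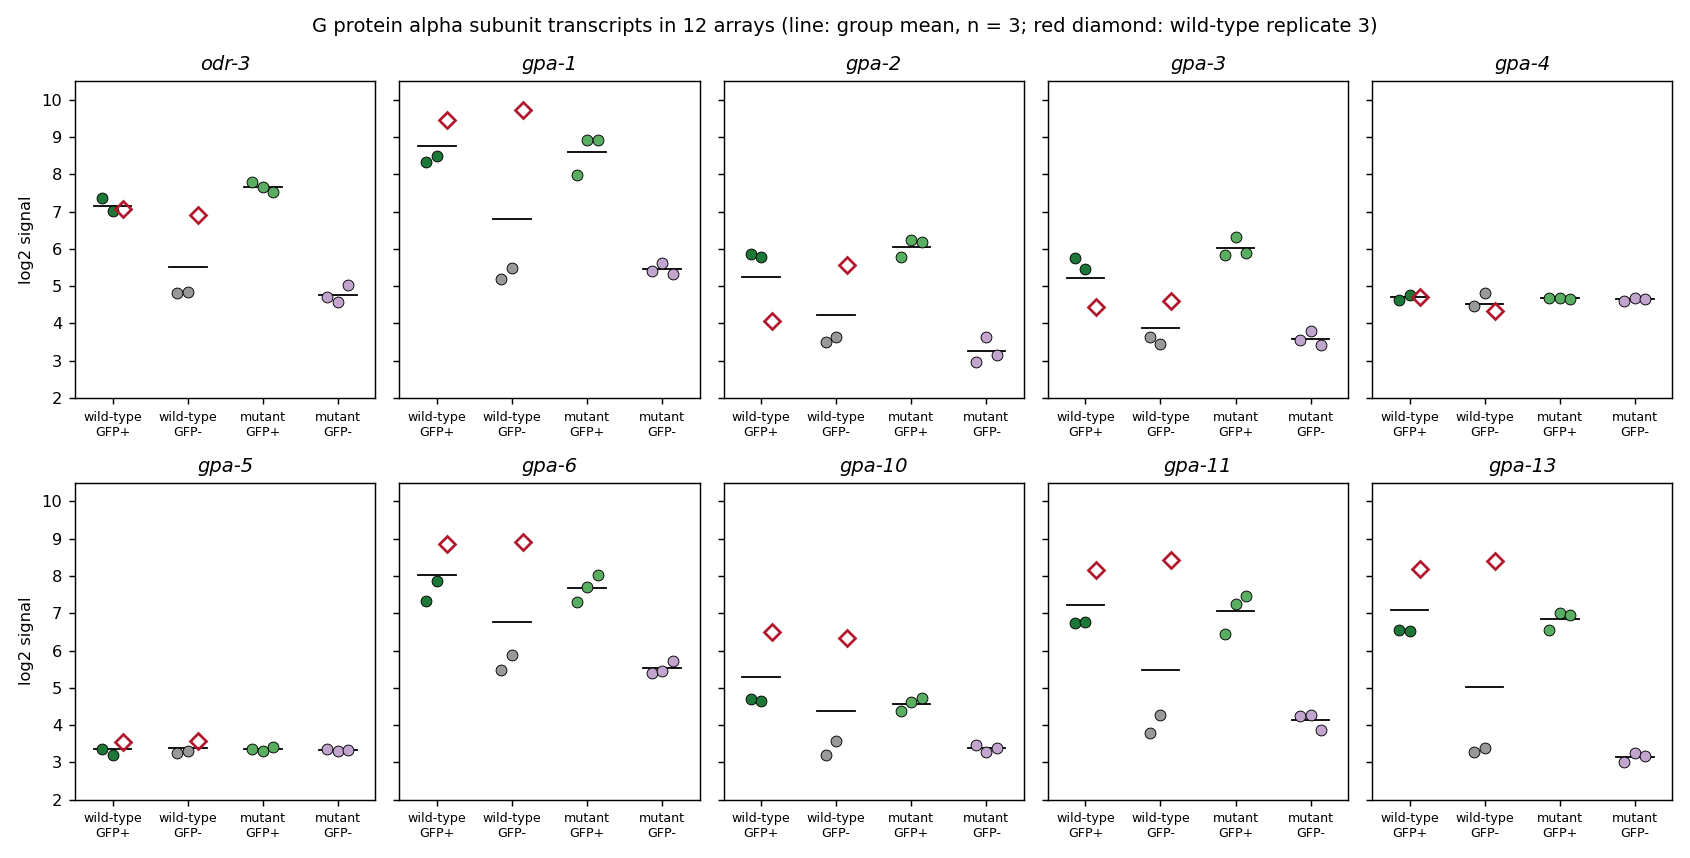
Log2 signal (y axis) of the 10 G alpha genes, 1 panel a gene, by strain and fraction (x axis); points are arrays, lines are means of 3 arrays, and red diamonds mark both wild-type replicate 3 arrays. In 8 panels the mutant GFP+ points lie above all mutant GFP- points, in the gpa-4 and gpa-5 panels all points are level, and the red diamond in the wild-type GFP- column of the other 8 panels lies above the remaining GFP- points.

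Counted over the 10 genes, every mutant GFP+ array was above every mutant GFP- array for 8 (background 20.1%). With all 3 wild-type pairs it held for odr-3 alone, where 5.49% of all probe sets had it. The 12-array fit called 3 of the 10 higher in mutant GFP+ cells (odr-3, gpa-2 and gpa-3), against 5.81% of all probe sets, and the 10-array fit called 8, against 13.5%. In wild-type the 12-array fit called 0 of 10 and 0% of all probe sets, while 2 of the 10 genes and 2740 probe sets had an unadjusted p under 0.05. The 10-array fit called 8 of 10, against 8.45% of all probe sets, and these were the same 8 genes as in the mutant. No gene of the 10 was called lower in GFP+ cells in either strain or fit. The median difference over the 10 genes was 2.62 in mutant and, in wild-type, 2.17 with 10 arrays and 1.29 with 12, beside medians of 0.0041, -0.0187 and 0.0089 over all probe sets.

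The smaller wild-type count with all arrays came with the array labelled wild-type GFP- replicate 3: without it alone, 8 of 10 genes were called in wild-type and 7 in mutant, and without wild-type GFP+ replicate 3 alone 1 gene (gpa-3) was called in wild-type. The 12-array fit uses 1 estimate of spread for all groups, so the wide spread of that group also entered the mutant tests. With the replicate number as a block, which pairs the fractions, the 12-array fit called 6 of the 10 in mutant and 0 in wild-type, with the block set within each strain 8 and 0, and the 10-array fit with the block 8 and 8. The mutant count in the 12-array fit was 0 without mutant GFP+ replicate 1, without mutant GFP+ replicate 2 or without mutant GFP- replicate 3, 5 without wild-type GFP- replicate 1, and 8 in the 10-array fit whichever mutant array was left out.

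**Figure D2:**
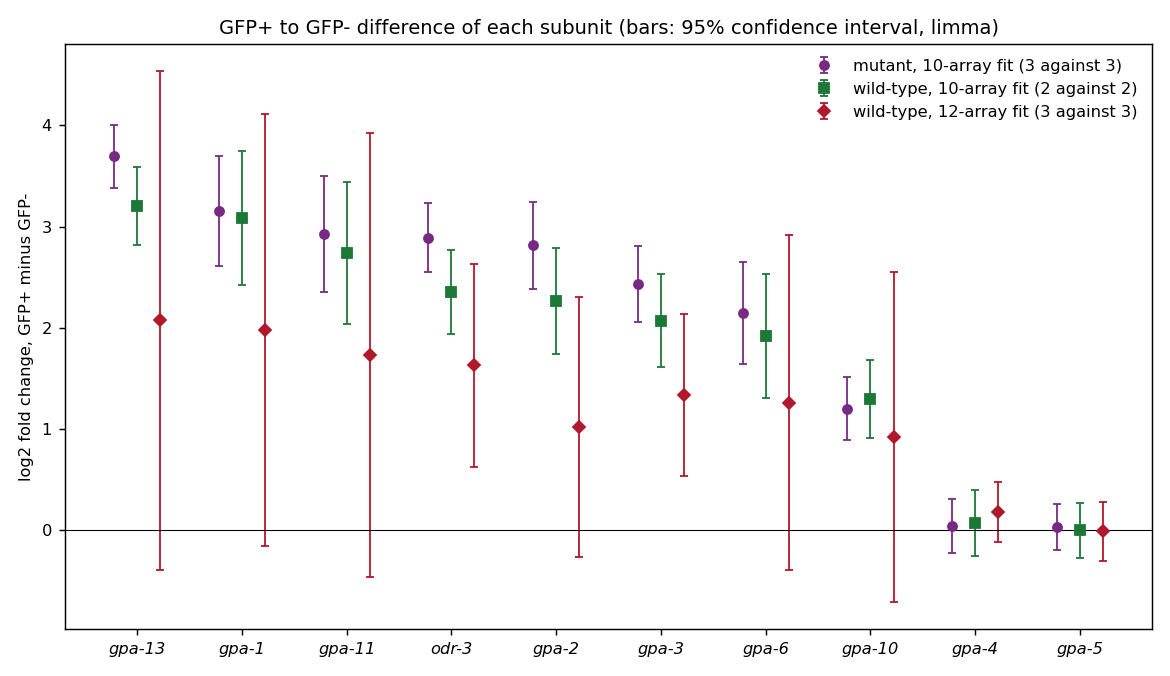
Log2 fold change of GFP+ over GFP- cells (y axis) for each gene, ordered by the mutant difference, with 95% confidence intervals from limma. The 8 genes from gpa-13 to gpa-10 have intervals above 0 in both strains in the 10-array fit, the intervals of gpa-4 and gpa-5 span 0, and the wild-type intervals of the 12-array fit are the widest and centred lower for all 8.

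In the wild-type replicate 3 pair the 10 genes did not shift together. In both arrays, gpa-1, gpa-5, gpa-6, gpa-10, gpa-11 and gpa-13 were above all 5 other GFP+ arrays, while gpa-2 and gpa-3 were below all 5. The share of all probe sets in such places was not counted, so they are not a result about these genes. The dim gpa-5 was above the mean of those 5 arrays by only 0.23 in the GFP+ array and 0.26 in the other. gpa-10 stood furthest above, by 1.89 log2 units in the GFP+ array and 1.73 in the array labelled GFP- relative to the mean of the other 5 GFP+ arrays (4.61 ± 0.137, SD, n = 5). gpa-2 was 1.89 below that mean in the GFP+ array but 0.41 below it in the other array, and gpa-3 was 1.401 and 1.258 below. odr-3, 0.40 and 0.57 below, stayed near the lower end of the other GFP+ arrays. These are values of a pair of arrays with a wide 3′ to middle gap in their control transcripts, and the part of that gap in them was not tested.

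**Figure D3:**
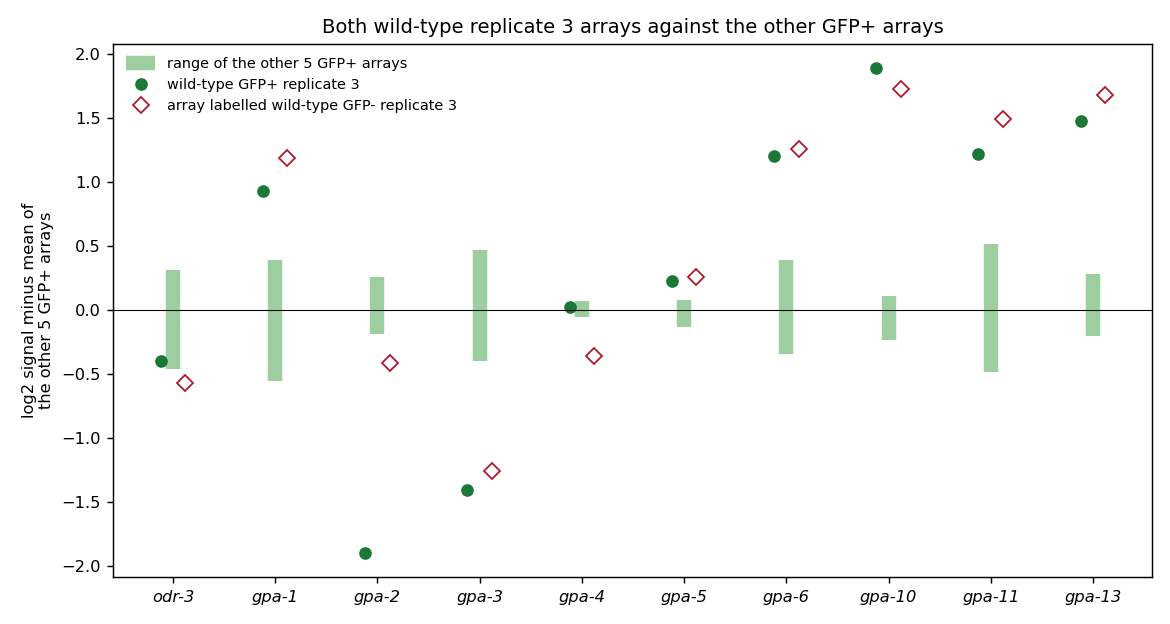
Log2 signal of wild-type GFP+ replicate 3 (filled circles) and of the array labelled wild-type GFP- replicate 3 (open diamonds) minus the mean of the other 5 GFP+ arrays (y axis), by gene; green bars give the range of those 5 arrays. The arrays of the pair lie close to each other for most genes, above the green bars for gpa-1, gpa-5, gpa-6, gpa-10, gpa-11 and gpa-13 and below them for gpa-2 and gpa-3, and they differ most from each other for gpa-2.

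Between mir-124 mutant and wild-type cells, none of the 10 genes was called in GFP+ or in GFP- cells, in the 12-array or the 10-array fit. Over all probe sets, 0.0133% were called in GFP+ and 0.0222% in GFP- cells with 12 arrays, and 0.0222% and 0.0177% with 10, so a count of 0 of 10 is near the background. In GFP+ cells odr-3 came nearest in the 10-array fit: its 3 mutant values (7.53 to 7.78) all lay above its wild-type values (7.01 to 7.36, replicate 3 included), as did those of gpa-3 (5.85 to 6.32 against 4.45 to 5.75), an order that 2.79% of all probe sets had. The odr-3 difference was 0.47 ± 0.168 (unadjusted p = 0.0198, limma adjusted p = 1.00). It was the only gene of the 10 with an unadjusted p under 0.05 there, where 3.05% of all probe sets (687, against 1127 expected by chance) had one, and with 12 arrays there was none. With 12 arrays the differences were 0.51 ± 0.454 for odr-3 and 0.80 ± 0.363 for gpa-3. For gpa-3 the 10-array difference was 0.42 ± 0.186 (95% confidence interval -0.0023 to 0.84), for gpa-13 0.30 ± 0.157 and for gpa-10 -0.092 ± 0.156. In GFP- cells the 10-array differences ran from -0.32 (gpa-2) to 0.12 (gpa-1), none with an unadjusted p under 0.05. With 12 arrays, which include the array labelled wild-type GFP- replicate 3, they ran from -1.88 (gpa-13) to 0.12 (gpa-4), with a median of -0.985, and none had an unadjusted p under 0.05 either. The confidence intervals of the 10-array fit for the strain differences of gpa-1, gpa-6 and gpa-11 spanned more than 1 log2 unit in GFP+ cells, and a change of these genes within those intervals was not detectable with these arrays.

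The difference between the fractions was also compared between the strains, by the interaction in limma, and 0 of 10 genes were called in either fit, as were 0% of all probe sets. With 10 arrays the fraction difference was larger in mutant than in wild-type by 0.54 ± 0.238 for odr-3 (unadjusted p = 0.0499, adjusted p = 1; 1.18% of all probe sets had an unadjusted p under 0.05), by 0.55 ± 0.300 for gpa-2 and by 0.49 ± 0.222 for gpa-13 (unadjusted p = 0.0550). For gpa-1 it differed by 0.068 ± 0.381 and for gpa-10 by -0.092 ± 0.220. With 12 arrays the values were larger and their SEs wider: 1.26 ± 0.642 for odr-3, 1.80 ± 0.820 for gpa-2, 1.62 ± 1.58 for gpa-13 and 1.18 ± 1.36 for gpa-1, none with an unadjusted p under 0.05.

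The 8 genes that separated the mutant fractions followed each other closely across arrays. Over the 10 arrays outside the wild-type replicate 3 pair, Pearson's r between them was 0.947 to 0.997 in all 28 gene pairs. Over all 12 arrays it ran from 0.454 (gpa-3 with gpa-10) to 0.996 (gpa-1 with gpa-11), and gpa-2 with gpa-10 gave 0.53 against 0.96 with 10 arrays. The points share the same arrays and mostly differ by fraction, so a high r describes the fraction difference that both genes have. Pairs that include gpa-4 or gpa-5 had r between -0.17 and 0.37 with 10 arrays.

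Among 17108 other genes with a probe set of their own, those most alike over the 12 arrays were taken for each gene, 3 apiece. For gpa-13 these were tax-2, a subunit of the cyclic nucleotide-gated channel (r = 0.997), wdr-60, of the ciliary dynein motor (0.996), and gpa-18 (0.996), and for gpa-11 gpa-18 (0.993), F20D6.5 (0.992) and T09B9.3 (0.992). For odr-3 they were B0563.7 (0.992), arcp-1, an ankyrin repeat protein of sensory cilia (0.990), and C36C9.5 (0.989). gpa-1 was most like ptp-8 (0.993), F28D1.6 (0.992) and nssp-83 (0.992), and gpa-6 most like ser-3, an octopamine receptor (0.990), EGAP5.1 (0.989) and F58A6.2 (0.988). gpa-10 was most like smg-7, a factor of nonsense-mediated mRNA decay (0.995), the globin gene glb-10 (0.989) and H41C03.2 (0.989), all of which it followed less closely over 10 arrays (0.982, 0.969 and 0.963). gpa-2 was most like F20D6.8 (0.982), aexr-3 (0.982) and F33E2.10 (0.980), and gpa-3 most like K09C4.10 (0.982), the chemoreceptor gene sre-19 (0.980) and the neuropeptide gene nlp-14 (0.980). The genes most like gpa-4 (gtnt-53, clec-129 and srw-118, r = 0.889 to 0.915) and gpa-5 (msp-32, F41H10.4 and H14A12.3, r = 0.957 to 0.968) had mutant fraction differences of 0.028 to 0.16, and these correlations are of small deviations in dim probe sets.

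The other 12 G alpha genes held differences between the fractions in both directions. In mutant cells the 12-array fit called 3 of 12 higher in GFP+ cells and 0 lower, and the 10-array fit 6 higher and 1 lower. In wild-type the 10-array fit called 4 higher and 1 lower. Of all probe sets, 5.81% were called higher in mutant with 12 arrays and 13.5% with 10, and 8.45% in wild-type with 10. The share called lower was not counted. gpa-18, named above among the most alike genes, read 9.05 to 9.39 (log2 signal) in GFP+ cells of the mutant against 4.89 to 5.48 in GFP-, a 16.2-fold difference of 4.01 (adjusted p = 0.0737 with 12 arrays, 3.22e-06 with 10) that was 3.80 in wild-type with 10 arrays and 2.46 with 12. A second gpa-18 probe set gave 2.07 in mutant, called with 10 arrays. The nematode subunits gpa-14 (2.24 ± 0.518, adjusted p = 0.0246), gpa-15 (1.86 ± 0.367, adjusted p = 0.0168) and gpa-7 (0.96 ± 0.242, adjusted p = 0.0321) were called in mutant with 12 arrays. gpa-8 (1.41, adjusted p = 0.0316) and goa-1 (0.64, adjusted p = 0.0100), the Go subunit used throughout the nervous system, were added with 10. Of the further goa-1 probe sets, one gave 0.83 and was called with 10 arrays, and one gave 0.48 and was not. gpa-12, the G12-class subunit, ran the other way in the mutant, reading 5.25 to 5.48 in GFP+ cells against 6.53 to 7.33 in GFP- (-1.60, adjusted p = 0.0765 with 12 arrays and 0.00184 with 10). egl-30 (Gq, 0.33), gsa-1 (Gs, 0.32), gpa-9 (-0.23), gpa-16 (-0.33), which acts in spindle positioning, and gpa-17 (-0.54) were not called in mutant. A second egl-30 probe set gave 1.08 and was called with 10 arrays, so the probe sets of that gene disagreed. The median difference in mutant was 0.48 over these 12 genes and 2.62 over the 10 genes followed here. These medians do not set sensory against non-sensory genes. The 12 mix the Gs, Gq, Go and G12 classes with nematode subunits, most of which have reporters in sensory neurons. Among the 12, gpa-18, gpa-14 and gpa-15 had mutant differences of 4.01, 2.24 and 1.86.

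Of the 4 G beta and gamma genes, 3 were called higher in mutant GFP+ cells with 12 and with 10 arrays, and 3 in wild-type with 10. The shares of all probe sets called higher were 5.81%, 13.5% and 8.45%, in the same order. gpc-1, the gamma subunit of sensory neurons, read 7.58 to 7.89 (log2 signal) in GFP+ cells of the mutant against 3.487 to 3.597 in GFP-. That is an 18.5-fold difference of 4.21 ± 0.967 (limma adjusted p = 0.0242 with 12 arrays), and it was 3.77 ± 0.163 in wild-type with 10 arrays and 2.64 ± 0.967 with 12. gpb-1, the general beta subunit, differed by 0.76 ± 0.202 (adjusted p = 0.0377; 1.25 and 0.47 on its other probe sets) and gpb-2, the beta subunit that pairs with RGS proteins, by 1.01 ± 0.238 (adjusted p = 0.0262). The gpb-2 probe set can bind related transcripts, as its name ends in _s_at. gpc-2, the gamma subunit found in most tissues, differed by 0.17 ± 0.526 (adjusted p = 0.892).

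Among regulators of G proteins, 18 of 20 listed genes were measured. The 12-array fit called 5 higher and 1 lower in mutant GFP+ cells, and the 10-array fit 7 and 1. In wild-type the 10-array fit called 6 and 1. The share of all probe sets called lower was not counted. The shares of all probe sets called higher were 5.81%, 13.5% and 8.45%, in the same order. rgs-3, an RGS protein that dampens signalling in sensory neurons, read 9.003 to 9.274 (log2 signal) in GFP+ cells of the mutant against 4.004 to 4.438 in GFP-, a difference of 4.86 ± 0.903 (29.1-fold, limma adjusted p = 0.0151). rgs-2 (2.92 ± 0.477), rgs-1 (2.03 ± 0.377), both RGS proteins that act on goa-1, and rgs-6 (1.75 ± 0.350) were called higher, and gpr-2, a spindle-positioning partner of G alpha measured by an _x_at probe set that can bind related transcripts, was lower (-1.43 ± 0.287). Further probe sets gave smaller differences for rgs-2 (1.37 and 1.64), rgs-1 (0.73) and rgs-6 (1.28 and 0.33). rgs-5, another RGS protein, was not called between the mutant fractions (0.065 ± 0.295, adjusted p = 0.930) and was higher in mutant than in wild-type cells. Its log2 signal was 7.49 to 8.30 in the 6 mutant arrays and 4.71 to 5.84 in the 6 wild-type arrays, a difference of 2.56 ± 0.295 in GFP+ (adjusted p = 0.0427) and 2.66 ± 0.295 in GFP- cells (adjusted p = 0.0226), called in both fits.

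On the receptor side, 14 of 15 listed chemosensory receptor genes were measured, and 2 were called higher in mutant GFP+ cells with 12 arrays, 4 with 10, and 4 in wild-type with 10; none was lower. sra-13, a receptor that modulates AWC-mediated chemotaxis, differed by 2.49 ± 0.631 (adjusted p = 0.0321) and str-1, an AWB receptor, by 0.50 ± 0.124 (adjusted p = 0.0293). Of the effectors and channels downstream, 18 of 20 listed genes were measured, and 10 were called higher with 12 arrays, 15 with 10, and 12 in wild-type with 10, with none lower. For both lists the shares of all probe sets called higher were 5.81%, 13.5% and 8.45%, in the same order. The largest were daf-11, a receptor guanylyl cyclase (4.95 ± 1.00, adjusted p = 0.0177), the TRPV channel gene ocr-4 (4.08 ± 0.982, adjusted p = 0.0272), tax-4, the other subunit of the cyclic nucleotide-gated channel (3.42 ± 0.743, adjusted p = 0.0209), and ocr-2 (2.93 ± 0.634, adjusted p = 0.0206). Second probe sets of daf-11 (0.16) and tax-4 (1.45) gave smaller differences. In the wild-type 12-array fit, 0 genes were called in any of these lists, where an unadjusted p under 0.05 was reached by 2 of 12 other G alpha, 3 of 4 beta and gamma, 7 of 18 regulator, 2 of 14 receptor and 10 of 18 downstream genes, beside 12.2% of all probe sets.

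**Figure D4:**
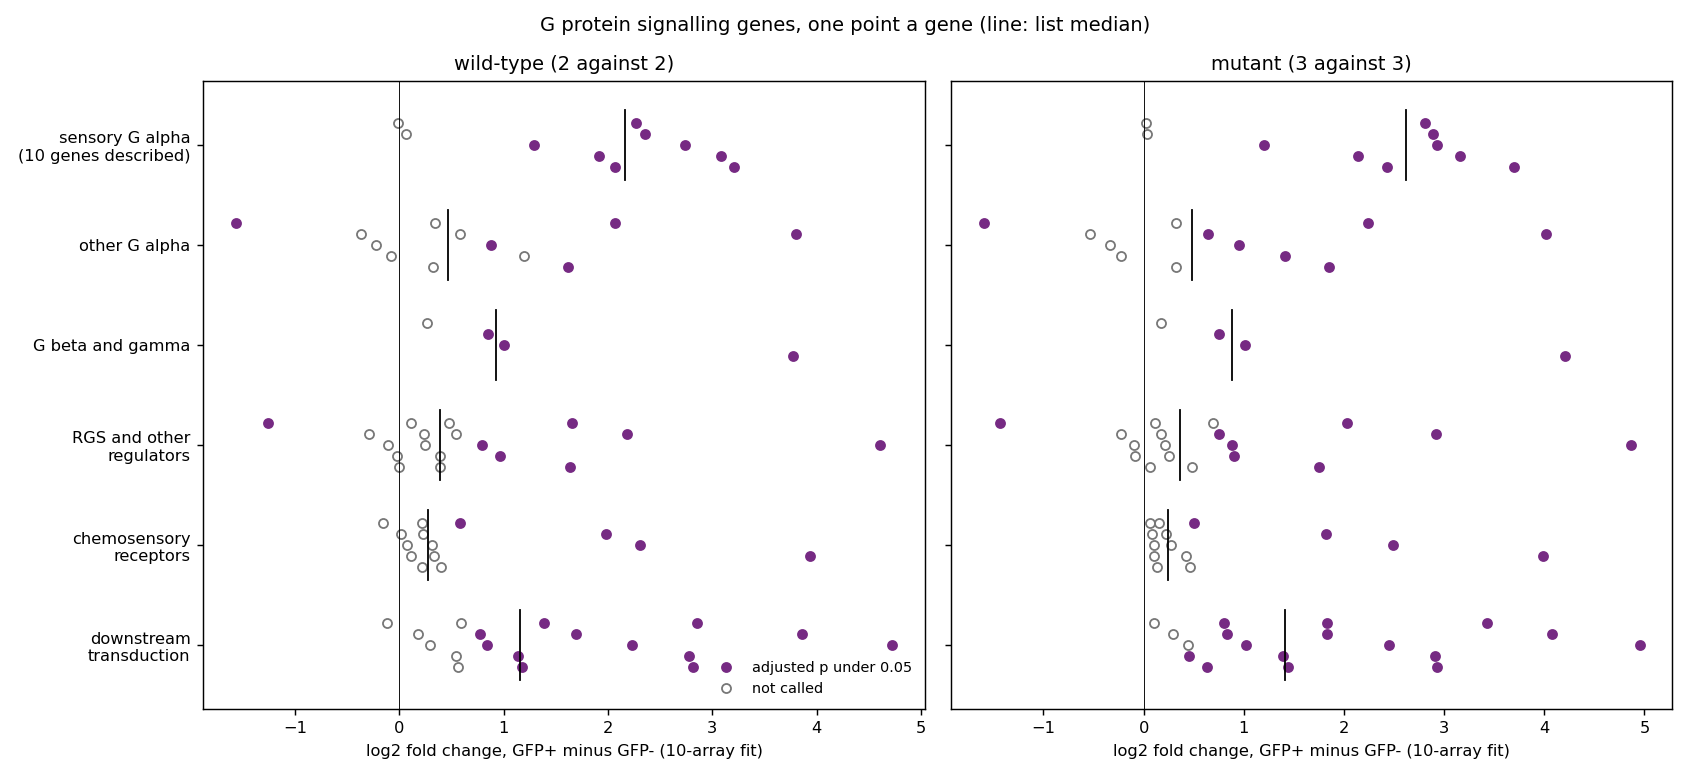
Log2 fold change of GFP+ over GFP- cells in the 10-array fit (x axis), wild-type left and mutant right, for the 10 sensory G alpha genes and for lists of other G protein signalling genes (rows); each point is a gene, filled where called, and black lines are list medians. The 10 sensory G alpha genes have the highest median in both strains, 2.17 and 2.62, and the points to the left of 0 that are filled are gpa-12 and gpr-2.

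The cell types in the fractions were read from marker lists. Of 24 markers of sensory neuron classes, 9 were called higher in mutant GFP+ cells with 12 arrays and 16 with 10. In wild-type 15 were called higher with 10 arrays. All 16 cilium genes were called in both strains with 10 arrays. Of all probe sets, 5.81% were called higher in mutant with 12 arrays and 13.5% with 10, and 8.45% in wild-type with 10. In the other direction, all 14 body wall muscle genes were called lower in GFP+ cells in both strains with 10 arrays, with fewer calls among the intestine (6 of 9), hypodermis (5 of 10), pharynx (4 of 8) and germline (3 of 8) markers in mutant. The share of all probe sets called lower was not counted. In mutant, 37.6% of all probe sets had an unadjusted limma p under 0.05 in either direction with 10 arrays. The mean log2 signal over 8 glia markers lay between 6.70 and 6.93 in GFP+ cells of the mutant and between 6.32 and 6.51 in its GFP- cells. With 10 arrays, 3 of the 8 were called higher and 2 lower, with a median difference of 0.0999. Their differences ran from -1.42 to 3.15, so the shift of the mean can rest on few of these genes and is not read as a rise of glia. In bulk samples, more cells of a type and more RNA per cell cannot be told apart, and the part of these shifts in the G alpha differences was not tested. Some markers of neurons of the gpa-4 and gpa-5 reporters, chosen after their values were seen, gave mixed values. Whether those neurons were among the GFP+ cells, and whether they transcribed gpa-4 or gpa-5, was not tested. For ASI, a neuron of the gpa-4 reporter, the TGF-beta ligand gene daf-7 was 4.50 ± 0.195 higher in mutant GFP+ cells (10-array fit, limma adjusted p = 1.22e-06), while the ASI receptor genes str-3 (0.082, adjusted p = 0.661), srg-36 (0.067, adjusted p = 0.795) and srg-37 (0.23, adjusted p = 0.491) were not called. For AWA, a neuron of the gpa-5 reporter, the nuclear receptor gene odr-7 was 2.22 ± 0.147 and the diacetyl receptor gene odr-10 3.99 ± 0.454 higher (adjusted p = 9.19e-06 and 0.000219). In the same fit the AWA channel gene ocr-1 (0.30, limma adjusted p = 0.094) and the ASI receptor gene daf-37 (0.27, limma adjusted p = 0.371) were not called.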

How the data were processed

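The authors deposited 1 log2 expression value per probe set and array, which was used as deposited; RMA, MAS5, affy and limma appear in the submitters' processing notes, which do not say which made the table. Array medians were 5.39 to 5.51. Of 22625 probe sets, 77 controls were set aside. The platform annotation gave 20766 probe sets 1 gene, 887 several and 895 none; a gene with several probe sets was represented by the brightest. No genome or sequence was used here, and no positions are given.

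Contrasts were tested in R 4.3.3 by limma 3.58.1 (a linear model of 4 group means, eBayes, 2-sided, Benjamini-Hochberg over 22548 probe sets), after a check on simulated data; figures used matplotlib 3.10.9. The series calls the triplicates biological; p-values measure the spread between these arrays, whose number limits the precision. The 10 genes, the lists and the 10-array fit were chosen with earlier results of these data known. Same-numbered GFP+ and GFP- arrays deviated together from their group means (correlations 0.41 to 0.485 in wild-type, 0.359 to 0.435 in mutant). By the mutant values, replicate numbers from the titles pair the fractions. The wild-type means include the replicate 3 pair, which stood apart in both fractions, so the wild-type values cannot show pairing. Between the strains, same-numbered GFP+ arrays gave correlations of 0.185 to 0.278 and GFP- arrays -0.0696 to 0.232. These values rest on the same wild-type means, so they cannot show pairing between the strains either. Named genes were the 10, the other G alpha, beta and gamma genes, rgs-5, up to 4 largest rises and 2 largest falls per other list called in mutant GFP+ against GFP- cells, and 3 most alike genes each. The ASI and AWA markers were named outside this rule, after their values were seen. Alternatives covered left-out arrays, replicate blocks, normalization, a filter on dim probe sets and the spread model.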

Additional observations from a re-analysis of the deposited data

How the results depend on the processing

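The counts of called genes between the fractions depended on the arrays and the model of spread, and the directions did not reverse under any alternative for a called gene. In wild-type the count was 0 with 12 arrays and 8 without both replicate 3 arrays, 8 in that fit with the replicate block and 8 with array weights; leaving out each array in turn gave 0 to 8. In mutant the count was 3 with 12 arrays and 8 without both wild-type replicate 3 arrays, 6 with the replicate block, 8 with the replicate block within strain, 8 with the replicate block and 10 arrays, 5 with the dimmest 25% of probe sets left out, 5 with trended and robust eBayes, 8 with array weights and 8 with only the mutant arrays fitted; leaving out each array in turn gave 0 to 7 with 12 arrays and 8 throughout with 10. Beyond the arrays left out and the probe sets tested, the cause was not tested. The strain contrasts and the interaction had 0 called genes under every alternative run, the replicate block included; a further quantile normalization and a shift to one median left the counts at 0 and 3. Averaging the probe sets of a gene was not run, since each of the 10 genes has 1. The limits are the small groups, the array labelled wild-type GFP- replicate 3, whose profile goes against its label, and dim signals: gpa-5 was below the lower quartile on 12 of 12 arrays, and gpa-2, gpa-3, gpa-10 and gpa-13 on 5 GFP- arrays each. Signal over local background was not used here.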
